A study of Mus musculus with 10 samples.

Results

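The aldehyde dehydrogenases described here are the products of Aldh1a1, Aldh1a7, Aldh1a3, Aldh3a1, Aldh3a2, Aldh6a1, Aldh18a1, Aldh1l1, Aldh1l2 and Aldh2. They were read in sorted mouse prostate luminal epithelial cells before and after castration and after testosterone was given back. Each gene was taken from the array row annotated with its symbol alone, and these 10 genes were 10 of the 30142 genes measured in that way. Each of the 10 had a single such row, so the mean over the arrays, which was to choose between rows, was not needed. The genes were chosen by their family name and with changes of these genes between the 3 groups, from these same arrays, already known, so the adjusted p-values and counts given for them describe where they stand in the fit of all genes and are no independent test.

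RNA was measured on Affymetrix ClariomD whole-transcript arrays, with 1 array per sample, from male mice that all carried the Hoxb13-rtTA and TetO-H2BGFP transgenes. In regenerated mice (n = 4), surgical castration at 12 weeks of age was followed by 6 weeks of regression and then by testosterone for 4 weeks from subcutaneous silastic implants. Castrated mice (n = 3) had the same operation at the same age and 6 weeks of regression without testosterone. Intact mice (n = 3) were not operated on. Mice of all 3 groups drank doxycycline at 2 mg/ml for 1 week, which switches on a nuclear green fluorescent protein in cells where the Hoxb13 promoter is active. Sorted cells were positive for that protein and for CD24, intermediate for CD49f, and negative for immune cell markers, CD45 and CD11b among them. Only cells with an active Hoxb13-driven reporter were therefore collected, and 1 animal or several pooled ones per array are both possible from the labels. No castrated group was kept without testosterone for as long as the regenerated mice were kept in all, so testosterone cannot be told apart from time and age in that comparison.

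Values are log2 intensities, in which a difference of 1 is a doubling, and the highest background control row on any array read 6.40. Values at or under 6.40 lie in the range where changes can be compressed, and 4 of the 10 enzymes (Aldh1a3, Aldh3a1, Aldh1l1 and Aldh1l2) lay there on every array. That limit comes from 1 row on castrated replicate 3, and without that array the highest background row read 5.58. Of the 4 enzymes, Aldh3a1 and Aldh1l1 were above 5.58 on 1 array each and the others on none, while Aldh18a1 was above it on 10 of 10 arrays and Aldh1a1 and Aldh1a7 on 1 of the 3 castrated arrays each. Along the first principal component of all genes (44.3% of the variance), regenerated replicate 4 read 3.03 and the other regenerated arrays -31.0 to -23.2, against 64.1 to 75.5 on castrated and -47.6 to -40.5 on intact arrays. Regenerated replicate 4 thus stood apart from its group on the side of the castrated arrays. Changes of the 10 enzymes between regenerated and castrated cells are also given without it, and other results that use it only in part. It was the lowest regenerated array for 6 of the 10 enzymes. Luminal markers fitted the label: 9 of 10 measured, among them Krt8, Krt18 and Epcam, read above 6.40 on every array, and 8 of 8 endothelial and 9 of 10 stromal markers read at or under it on every array. The exception among stromal markers was Dcn, which averaged 11.37 on regenerated, 7.53 on castrated and 12.23 on intact arrays. Of 9 basal markers 5 were at or under 6.40 on every array, among them Krt5, Krt14 and Trp63, and 3 were above it on every array: Krt15 (9.80 to 14.02), Itga6 (7.68 to 10.47) and Dst (6.77 to 8.10). Of 14 myeloid markers 11 were at or under 6.40 on every array, the sort antigens Ptprc, Adgre1 and Itgam included. Cd68 was above it on all 10 arrays, Lyz2 on 3, and Cd14 averaged 6.38 on regenerated, 7.38 on castrated and 5.43 on intact arrays. Of 9 lymphocyte markers 8 were at or under it on every array, and the exception, Cd3e, averaged 6.40 ± 0.74 on regenerated (SD, n = 4), 10.45 ± 1.91 on castrated (SD, n = 3) and 7.05 ± 1.46 on intact arrays (SD, n = 3). The mean level of the myeloid list was 4.25 to 4.95 on regenerated, 4.55 to 5.01 on castrated and 4.21 to 4.48 on intact arrays, and that of the lymphocyte list 4.13 to 4.34 on regenerated, 4.59 to 4.78 on castrated and 4.10 to 4.46 on intact arrays. Hoxb13 itself averaged 9.47 on regenerated, 7.74 on castrated and 10.39 on intact arrays. The mean level of 6 urothelial markers was 7.87 to 8.30 on regenerated, 9.22 to 9.85 on castrated and 7.30 to 7.52 on intact arrays, with Krt20 and Upk3b at or under 6.40 throughout. In that list Upk1b averaged 13.30 on regenerated, 15.59 on castrated and 10.04 on intact arrays, Upk3a averaged 9.27 on castrated arrays and lay under 6.40 on every regenerated and intact array, and Upk1a read 16.57 to 18.49 over the 10 arrays. The mean level of 8 proximal luminal progenitor markers was 9.28 to 10.38 on regenerated, 9.38 to 10.10 on castrated and 8.55 to 8.84 on intact arrays. These moved both ways: in castrated against intact cells Cd44, Clu and Sox9 changed by 4.60, 3.07 and 1.45 and Psca by -2.815. The others did not pass in limma. Seminal vesicle markers averaged 4.19 to 8.53 on regenerated, 5.59 to 5.74 on castrated and 6.01 to 8.23 on intact arrays, with the highest value on regenerated replicate 4. On castrated arrays Pate4 averaged 14.91 and Svs2, Svs4 and Svs5 averaged 4.81, 5.31 and 6.61, against 12.95, 9.95, 8.57 and 12.47 on intact arrays. The part of these markers in the enzyme values was not tested. In bulk RNA, fewer cells of a type and less RNA per cell cannot be told apart.

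Aldehyde dehydrogenases oxidise reactive aldehydes to acids with NAD or NADP as the electron acceptor. Some make signals or building blocks: Aldh1a1 and Aldh1a3 turn retinaldehyde into retinoic acid, the ligand of the nuclear retinoic acid receptors. Others serve folate and amino acid metabolism or clear aldehydes formed from lipids and ethanol. High aldehyde dehydrogenase activity is widely used to sort stem and progenitor cells of many epithelia, the prostate among them.

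Castrated cells had less RNA for Aldh1a1, Aldh1a7 and the main fatty aldehyde and amino acid enzymes than intact cells. Aldh3a2, Aldh1a7, Aldh1a1 and Aldh6a1 fell by 5.19, 4.70, 4.28 and 4.08 on the log2 scale, and Aldh18a1 by 1.51. Of the dim enzymes, Aldh1l1 fell by 0.76, and Aldh1a3 and Aldh3a1 rose by 0.48 and 0.76. In all, 8 of the 10 enzymes passed the limma test at an adjusted p under 0.05, 2 higher and 6 lower, where 8.01% of all genes passed, 4.82% higher and 3.19% lower. Castrated and intact arrays did not overlap for 10 of 10 enzymes, where 28.9% of all genes had no overlap. The median change of the 10 was -1.14, against 0.04 over all genes.

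**Figure D1:**
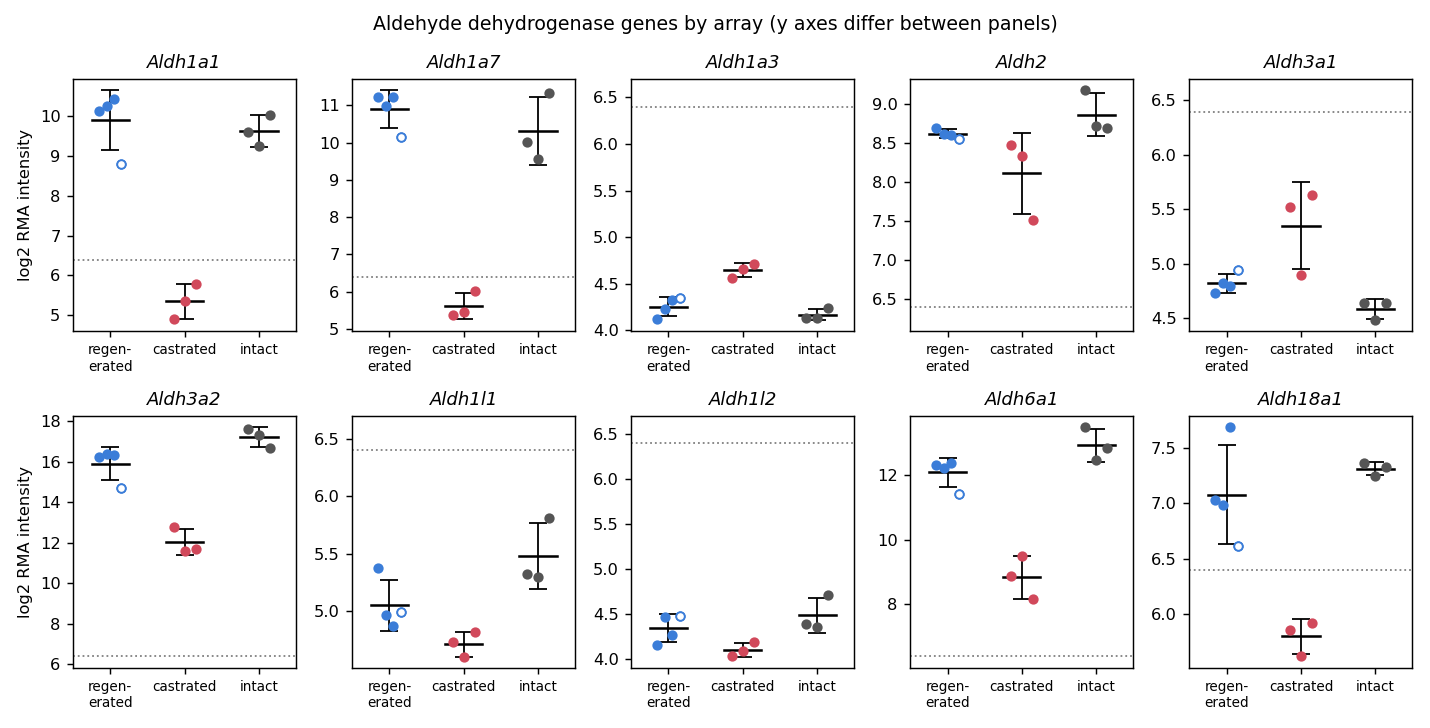
Log2 RMA intensity (y axis, scales differ between panels) of each of the 10 aldehyde dehydrogenases on each array of the regenerated, castrated and intact groups. Points are arrays, the open circle is regenerated replicate 4, bars give the mean ± SD and the dotted line is the highest background value, 6.40. Castrated points lie below both other groups for Aldh1a1, Aldh1a7, Aldh3a2, Aldh6a1 and Aldh18a1, and by narrow margins for Aldh2 and Aldh1l1. They lie above both for Aldh1a3.

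Among the retinaldehyde enzymes, Aldh1a1 is the cytosolic enzyme that makes retinoic acid in many adult epithelia. Aldh1a7, its close mouse paralog, is placed with it by sequence family, and its action on retinaldehyde was not tested. Aldh1a1 read 10.13, 10.26, 10.43 and 8.80 on regenerated arrays, 4.90, 5.36 and 5.78 on castrated arrays, and 9.60, 9.25 and 10.04 on intact arrays. Every castrated array lay under the background limit, and the regenerated and intact arrays overlapped far above it. Means were 9.90 ± 0.75 on regenerated (SD, n = 4), 5.35 ± 0.44 on castrated (SD, n = 3) and 9.63 ± 0.40 on intact arrays (SD, n = 3). In castrated cells Aldh1a1 changed by -4.28 ± 0.42 against intact cells (SE, 95% interval -5.22 to -3.35, limma adjusted p = 0.000329). In regenerated cells it was higher by 4.56 ± 0.39 than in castrated cells (limma adjusted p = 0.000191), and by 4.93 without regenerated replicate 4. Because castrated arrays sat near background, both differences can understate the change.

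Aldh1a7 followed the same order. It read 11.22, 10.97, 11.23 and 10.16 on regenerated arrays, 5.36, 5.45 and 6.01 on castrated arrays, and 10.02, 9.57 and 11.33 on intact arrays. The castrated arrays were again all under the background limit, and intact replicate 3 was the highest of the 10. Aldh1a7 changed by -4.70 ± 0.45 in castrated against intact cells (SE, limma adjusted p = 0.000281), and was higher by 5.29 ± 0.42 in regenerated than in castrated cells (limma adjusted p = 9.34e-05; 5.54 without regenerated replicate 4). Over the 10 arrays the 2 genes had a Pearson r of 0.99, on arrays that share the same 3 conditions. They are neighbours on mouse chromosome 19 with closely similar sequences, and whether RNA of either gene binds the other's probes was not tested.

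The 250 bases before a start of both genes are shown because the pair moved together and share sequence there. For Aldh1a1 the RefSeq start was picked whose window had the longest run in common with Aldh1a7. The windows come from NCBI RefSeq on GRCm38.p6, Aldh1a1 at chr19:20601718-20601967 on the plus strand and Aldh1a7 at chr19:20727557-20727806 on the minus strand, written 5′ to 3′ with the longest run common to both in capitals.
Aldh1a1: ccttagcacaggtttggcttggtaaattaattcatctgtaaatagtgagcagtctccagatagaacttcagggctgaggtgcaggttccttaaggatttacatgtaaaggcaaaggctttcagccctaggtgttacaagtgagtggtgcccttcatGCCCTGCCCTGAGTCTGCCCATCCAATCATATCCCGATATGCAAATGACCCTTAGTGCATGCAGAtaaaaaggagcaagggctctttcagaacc
Aldh1a7: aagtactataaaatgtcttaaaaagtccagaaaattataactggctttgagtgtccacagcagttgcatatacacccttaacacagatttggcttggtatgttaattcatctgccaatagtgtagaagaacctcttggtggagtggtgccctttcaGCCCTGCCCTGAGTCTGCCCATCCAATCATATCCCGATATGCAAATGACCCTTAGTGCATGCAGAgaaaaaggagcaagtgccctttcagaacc
The shared run is 65 bases long and begins 94 bases before the start of each gene, and 160 of 175 aligned bases were identical (91.4%). Another RefSeq start of Aldh1a1 had 64.2% identity with the Aldh1a7 window and a longest shared run of 8 bases.

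The shared run holds CCAAT with its first base 72 bases before the start, and the octamer ATGCAAAT 56 bases before it, in both genes. Motifs were searched by their letters on both strands in the 8 windows of the 6 enzymes listed in the table (Aldh1a1, Aldh1a7, Aldh3a2, Aldh6a1, Aldh18a1 and Aldh1l1) and in all 32851 windows of the same length. CCAAT was in 6 of the 8 and in 33.8% of all windows, and the octamer in 2 of the 8 and in 1.6% of all. TATAAA was in 1 of the 8 and in 12.4% of all. TGTTCT, the core of the androgen response element, was in 0 of the 8 and in 16.1% of all. The 8 windows are not independent, since Aldh1a1 and Aldh6a1 have 2 each. Both octamer matches, and a CCAAT of each gene, lie in the run shared by Aldh1a1 and Aldh1a7. These matches describe letters in a short window only.

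Aldh1a3, the retinaldehyde enzyme of several embryonic and glandular epithelia, went the other way at the floor of the scale. It read 4.12, 4.22, 4.33 and 4.34 on regenerated arrays, 4.56, 4.65 and 4.71 on castrated arrays, and 4.13, 4.13 and 4.24 on intact arrays. The castrated arrays were the highest and overlapped with neither group, but all 10 values lay under the background limit. Aldh1a3 rose by 0.48 ± 0.09 in castrated against intact cells (SE, limma adjusted p = 0.00982), with an adjusted p of 0.0514 without intact replicate 1. It was lower by 0.39 ± 0.08 in regenerated than in castrated cells (SE, limma adjusted p = 0.0252). That call was lost without castrated replicate 2 or 3 or regenerated replicate 1 or 2, where the limma adjusted p reached 0.0867.

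Aldh3a2 is the fatty aldehyde dehydrogenase of the endoplasmic reticulum, which oxidises long-chain aldehydes from lipid breakdown and is deficient in human Sjögren-Larsson syndrome. It read 16.22, 16.35, 16.35 and 14.69 on regenerated arrays, 12.75, 11.60 and 11.68 on castrated arrays, and 17.61, 17.34 and 16.65 on intact arrays. The 3 groups did not overlap: intact arrays were highest, regenerated arrays next and castrated arrays lowest, all well above background. Aldh3a2 changed by -5.19 ± 0.48 in castrated against intact cells, 36.4-fold lower (SE, 95% interval of the log2 change -6.25 to -4.13, limma adjusted p = 0.000226). In regenerated cells it was higher than in castrated cells by 3.89 ± 0.45, 14.8-fold (SE, limma adjusted p = 0.000992), and by 4.30 without regenerated replicate 4. Intact and regenerated arrays, the neighbours in this order, differed by -1.30 ± 0.45 (regenerated against intact, SE, 95% interval -2.29 to -0.30), which did not pass (limma adjusted p = 0.351), and by -0.89 without regenerated replicate 4.

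Its RefSeq window is shown with that of Aldh6a1, the other bright enzyme that fell to a level above background, with CCAAT or its reverse complement ATTGG in capitals. On GRCm38.p6 they lie at chr11:61267187-61267436 for Aldh3a2 and chr12:84451025-84451274 for Aldh6a1, both on the minus strand and written 5′ to 3′.
Aldh3a2: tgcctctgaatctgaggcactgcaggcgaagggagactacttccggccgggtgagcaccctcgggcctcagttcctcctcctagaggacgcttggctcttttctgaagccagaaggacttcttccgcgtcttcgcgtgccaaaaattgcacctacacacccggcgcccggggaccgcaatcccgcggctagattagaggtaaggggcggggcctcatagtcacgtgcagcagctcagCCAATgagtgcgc
Aldh6a1: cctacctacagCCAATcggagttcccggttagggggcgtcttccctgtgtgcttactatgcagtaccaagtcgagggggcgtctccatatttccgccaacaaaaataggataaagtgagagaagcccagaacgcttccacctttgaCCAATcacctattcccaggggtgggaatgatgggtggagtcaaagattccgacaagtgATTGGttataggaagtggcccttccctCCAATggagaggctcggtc
The Aldh3a2 window holds the motif once and the Aldh6a1 window shown holds it at 4 places. In the window of another RefSeq start of Aldh6a1 it lies only at 109 bases before that start.

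Aldh3a1, the neighbour of Aldh3a2 on chromosome 11, oxidises aromatic and medium-chain aldehydes and is abundant in the mouse cornea. It read 4.73, 4.83, 4.79 and 4.94 on regenerated arrays, 5.52, 4.89 and 5.64 on castrated arrays, and 4.64, 4.48 and 4.64 on intact arrays. Castrated arrays lay above every intact array and overlapped with the regenerated ones, all under the background limit. The rise of 0.76 ± 0.17 in castrated against intact cells passed (SE, limma adjusted p = 0.0224). It was lost without intact replicate 1 or 2 or castrated replicate 1 or 3, where the limma adjusted p reached 0.0920. The difference of -0.53 ± 0.16 between regenerated and castrated cells did not pass (SE, limma adjusted p = 0.0959), but was -0.76 and passed without castrated replicate 2 (limma adjusted p = 0.00745). Next to the large loss of Aldh3a2, its chromosomal neighbour thus had a small change of opposite sign at a level near background.

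Of the amino acid enzymes, Aldh6a1 is the mitochondrial methylmalonate semialdehyde dehydrogenase of valine and thymine breakdown. It read 12.31, 12.21, 12.39 and 11.41 on regenerated arrays, 8.89, 9.49 and 8.15 on castrated arrays, and 13.48, 12.46 and 12.82 on intact arrays. The groups did not overlap and kept the order seen for Aldh3a2, with intact arrays highest and castrated arrays lowest. Aldh6a1 changed by -4.08 ± 0.40 in castrated against intact cells, 16.9-fold lower (SE, 95% interval of the log2 change -4.97 to -3.19, limma adjusted p = 0.00033). It was higher in regenerated than in castrated cells by 3.24 ± 0.38, 9.44-fold (SE, limma adjusted p = 0.00104), and by 3.46 without regenerated replicate 4. Over the 10 arrays Aldh6a1 and Aldh3a2 had a Pearson r of 0.965.

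Aldh18a1 is the bifunctional enzyme that makes pyrroline carboxylate from glutamate on the way to proline and ornithine. It read 7.03, 6.98, 7.69 and 6.61 on regenerated arrays, 5.86, 5.62 and 5.92 on castrated arrays, and 7.36, 7.25 and 7.33 on intact arrays. Castrated arrays were the lowest, all under 6.40 and above 5.58, and the regenerated arrays spread across the intact ones. Aldh18a1 changed by -1.51 ± 0.24 in castrated against intact cells (SE, limma adjusted p = 0.00411) and was higher by 1.28 ± 0.23 in regenerated than in castrated cells (SE, limma adjusted p = 0.0094; 1.44 without regenerated replicate 4).

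The folate enzymes Aldh1l1 and Aldh1l2 are the cytosolic and mitochondrial formyltetrahydrofolate dehydrogenases. Aldh1l1 read 5.38, 4.97, 4.88 and 4.99 on regenerated arrays, 4.73, 4.60 and 4.82 on castrated arrays, and 5.33, 5.30 and 5.81 on intact arrays. Its castrated arrays were the lowest and overlapped with neither group, and regenerated replicate 1 reached into the intact range. Every value lay under the background limit. Aldh1l1 changed by -0.76 ± 0.17 in castrated against intact cells (SE, limma adjusted p = 0.0212), a call lost without intact replicate 3 or castrated replicate 1 or 2, where the limma adjusted p reached 0.0793. Its difference of 0.34 ± 0.16 between regenerated and castrated cells did not pass (SE, 95% interval -0.02 to 0.69, limma adjusted p = 0.289).

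Aldh1l2 read 4.16, 4.47, 4.26 and 4.47 on regenerated arrays, 4.03, 4.09 and 4.19 on castrated arrays, and 4.39, 4.36 and 4.71 on intact arrays. Castrated arrays lay under the intact ones and overlapped with the regenerated ones, all under the background limit. The change of -0.38 ± 0.12 in castrated against intact cells did not pass (SE, limma adjusted p = 0.0919), and did with each array centred on its median (-0.43, limma adjusted p = 0.0474). The difference of 0.24 ± 0.11 between regenerated and castrated cells did not pass either (SE, 95% interval -0.02 to 0.49, limma adjusted p = 0.298).

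Aldh2, the mitochondrial enzyme that clears acetaldehyde, had the smallest spread of group means among the 3 enzymes that were above the background limit on every array. It read 8.68, 8.62, 8.61 and 8.55 on regenerated arrays, 8.48, 8.33 and 7.52 on castrated arrays, and 9.18, 8.71 and 8.69 on intact arrays. The 3 groups did not overlap, by narrow margins and in the same order as for Aldh3a2, and castrated replicate 3 was the lowest. The change of -0.75 ± 0.27 in castrated against intact cells did not pass (SE, 95% interval -1.34 to -0.16, limma adjusted p = 0.127), and was -0.46 without castrated replicate 3. The difference of 0.51 ± 0.25 between regenerated and castrated cells did not pass (SE, 95% interval -0.05 to 1.06, limma adjusted p = 0.309), and was 0.21 without castrated replicate 3.

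**Figure D2:**
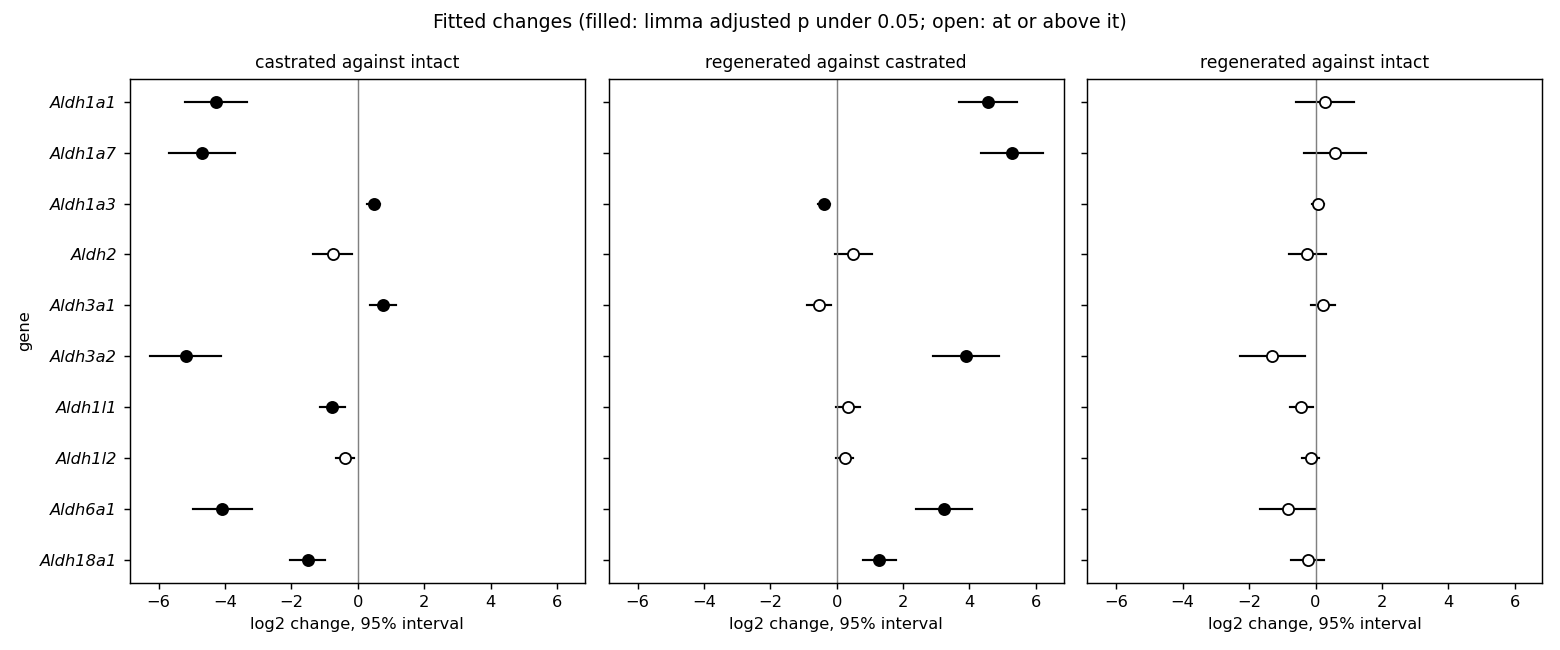
Log2 change (x axis) of each aldehyde dehydrogenase in 3 panels, for castrated cells against intact ones, regenerated cells against castrated ones and regenerated cells against intact ones. Points are limma estimates over all 10 arrays and bars their 95% intervals. Changes in castrated cells run between -5.19 for Aldh3a2 and 0.76 for Aldh3a1, and the intervals of regenerated against intact cells include 0 except for Aldh3a2, Aldh6a1 and Aldh1l1.

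With testosterone, 6 of the 10 enzymes passed between regenerated and castrated cells, 5 higher (Aldh1a1, Aldh1a7, Aldh3a2, Aldh6a1 and Aldh18a1) and 1 lower (Aldh1a3), where 4.98% of all genes passed, 1.97% higher and 3.01% lower. Groups did not overlap for 8 of 10, where 16.0% of all genes had no overlap, and the median change was 0.89, against -0.01 over all genes. Without regenerated replicate 4 the count was also 6 of 10, where 7.06% of all genes passed. The 4 enzymes that did not pass differed by 0.53 (Aldh2), -0.57 (Aldh3a1), 0.36 (Aldh1l1) and 0.19 (Aldh1l2) without that array, and Aldh1a3 by -0.42. This comparison and that of castrated with intact cells share the 3 castrated arrays, so opposite signs in them are not independent.

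Regenerated and intact cells were also set against each other directly, in a comparison that does not use the castrated arrays for its means. None of the 10 enzymes passed (0 of 10, limma), where 0.0365% of all genes passed, 0.0332% higher and 0.00332% lower. The unadjusted limma p was under 0.05 for Aldh3a2, Aldh6a1 and Aldh1l1, a looser threshold to which those shares do not apply. For Aldh1l1 the difference was -0.43 ± 0.16 (SE, 95% interval -0.78 to -0.07, limma adjusted p = 0.396). For Aldh6a1 it was -0.84 ± 0.38 (SE, 95% interval -1.67 to -0.01, limma adjusted p = 0.495), and -0.62 without regenerated replicate 4. Aldh1a1 differed by 0.27 ± 0.39 (SE, 95% interval -0.60 to 1.15) and Aldh1a7 by 0.59 ± 0.42 (SE, 95% interval -0.34 to 1.51), so that differences of either sign remain within these intervals. Without regenerated replicate 4 they were 0.64 and 0.83, and neither passed. The other 5 enzymes differed by -0.25 (Aldh2) to 0.24 (Aldh3a1). Groups did not overlap for 4 of 10 (Aldh3a2, Aldh6a1, Aldh2 and Aldh3a1), where 9.65% of all genes had no overlap.

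The family's other members were measured for 10 of 11 genes. In castrated against intact cells 2 were lower and 0 higher, where 3.19% of all genes were lower and 4.82% higher. In regenerated against castrated cells 2 were higher and 0 lower, where 1.97% of all genes were higher and 3.01% lower. In each case the genes were Aldh3b2 and Aldh7a1. Aldh3b2, a lipid-droplet enzyme for fatty aldehydes in the mouse, read 9.27, 10.05, 10.13 and 7.96 on regenerated arrays, 6.95, 6.31 and 7.09 on castrated arrays, and 9.62, 9.22 and 9.94 on intact arrays. As for Aldh3a2, castrated arrays were lowest and regenerated replicate 4 was the lowest regenerated array. Unlike for Aldh3a2, regenerated and intact arrays overlapped. Aldh3b2 changed by -2.81 ± 0.51 in castrated against intact cells (SE, limma adjusted p = 0.00814). In regenerated against castrated cells Aldh3b2 changed by 2.57 ± 0.48 (SE, limma adjusted p = 0.0123, and 0.0596 without castrated replicate 2), and by 3.03 without regenerated replicate 4. A further row annotated to both Aldh3b2 and Aldh3b3 was left out, so the assignment to Aldh3b2 is uncertain.

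Aldh7a1, the antiquitin of lysine breakdown, read 8.89, 8.46, 8.30 and 8.47 on regenerated arrays, 7.87, 7.39 and 6.95 on castrated arrays, and 8.28, 8.31 and 8.68 on intact arrays. Castrated arrays were the lowest, and the other groups overlapped. It changed by -1.02 ± 0.26 in castrated against intact cells (SE, limma adjusted p = 0.0402), lost without intact replicate 1, 2 or 3, castrated replicate 2 or 3 or regenerated replicate 2 or 3, with a limma adjusted p of up to 0.129. It was higher by 1.13 ± 0.25 in regenerated than in castrated cells (SE, limma adjusted p = 0.0272), lost without castrated replicate 2 or 3 or regenerated replicate 1 or 2, with a limma adjusted p of up to 0.0962. With the replicate number as a block the limma adjusted p was 0.0573 and 0.0531 in these comparisons, and with only the groups compared in the fit it was 0.0627 and 0.0666. The other 8 genes changed by -0.17 to 0.18 in castrated against intact cells, and none passed. Of these, 7 lay at or under 6.40 on every array, where changes can be compressed, and Aldh9a1 alone was above it.

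Of 29 measured genes for retinoid handling, 4 were higher and 1 lower in castrated than in intact cells, where 4.82% of all genes were higher and 3.19% lower. In regenerated against castrated cells 2 were higher and 2 lower, where 1.97% of all genes were higher and 3.01% lower. Most of the list was dim, with 8 of the 29 above 6.40 on any array. The gene that fell was Crabp1, a cytosolic retinoic acid binding protein, which read 9.24 to 12.54 on regenerated arrays, 7.15, 7.21 and 7.38 on castrated arrays, and 12.37, 13.16 and 12.17 on intact arrays. Its castrated arrays were the lowest, as for Aldh1a1, and above the background limit. Crabp1 changed by -5.32 ± 0.71 in castrated against intact cells (SE, limma adjusted p = 0.00168) and by 4.03 ± 0.67 in regenerated against castrated cells (SE, limma adjusted p = 0.00698; 4.71 without regenerated replicate 4). Of the enzymes that form retinaldehyde from retinol, Rdh10 rose by 1.66 ± 0.40 (SE, limma adjusted p = 0.0289, and up to 0.115 without intact replicate 1 or 2 or castrated replicate 1 or 3) and Rdh5, a retinol dehydrogenase best known from the eye, by 0.81 ± 0.12 (SE, limma adjusted p = 0.00234) in castrated against intact cells. Rdh5 lay under the background limit on every array.

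**Figure D3:**
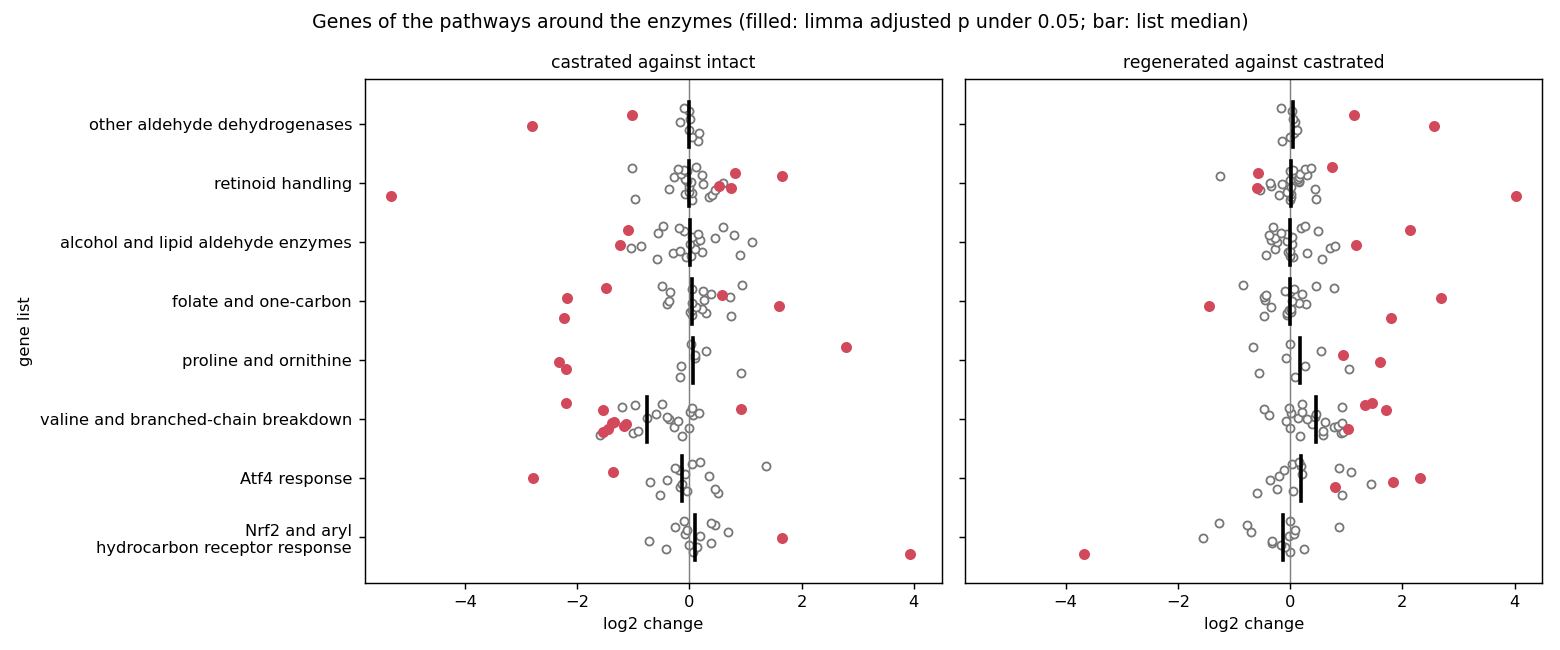
Log2 change (x axis) of every measured gene of 8 lists around the aldehyde dehydrogenases, in castrated against intact and in regenerated against castrated cells. Each point is a gene, filled where limma called it. The genes of valine and branched-chain breakdown lie mostly left of 0 in castrated cells, with a median of -0.75, and the called genes of retinoid handling lie on both sides.

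Among 25 measured alcohol and lipid aldehyde genes, 2 were lower and 0 higher in castrated than in intact cells, beside 8.01% of all genes called in either direction, with a median change of 0.02, against 0.04 over all genes. In regenerated against castrated cells 2 were higher and 0 lower, beside 4.98% of all genes. On some array 16 of the 25 were above 6.40. Phyh, the peroxisomal hydroxylase that starts phytanic acid breakdown, read 11.74, 12.33, 12.30 and 11.75 on regenerated arrays, 9.99, 9.98 and 9.73 on castrated arrays, and 10.92 to 11.08 on intact arrays. Unlike Aldh3a2, its regenerated arrays were all above the intact ones, by 1.03 ± 0.22, though this did not pass (SE, limma adjusted p = 0.229). Phyh was higher by 2.13 ± 0.22 in regenerated than in castrated cells (SE, limma adjusted p = 0.000612). It was lower by 1.10 in castrated than in intact cells (limma adjusted p = 0.0192, and up to 0.0829 without intact replicate 1 or 2 or castrated replicate 2 or 3).

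For Aldh6a1 the list of valine and branched-chain breakdown had 1 gene higher and 8 lower of 27 measured in castrated against intact cells, where 4.82% of all genes were higher and 3.19% lower, with a median change of -0.75, against 0.04 over all genes. Without regenerated replicate 4, 13 were lower, while the lower calls over all genes rose from 962 to 1390. In regenerated against castrated cells 4 were higher, where 1.97% of all genes were, and 0 lower, with a median of 0.47, against -0.01 over all genes. Leaving out regenerated replicate 4 gave 8 higher, while the higher calls over all genes rose from 593 to 1076. Ppm1k, the phosphatase that activates the branched-chain ketoacid dehydrogenase, read 7.78, 8.18, 7.69 and 6.94 on regenerated arrays, 6.09, 6.35 and 6.10 on castrated arrays, and 8.64, 8.66 and 7.82 on intact arrays. Its castrated arrays were the lowest and all under the background limit. It changed by -2.20 ± 0.32 in castrated against intact cells (SE, limma adjusted p = 0.00248) and by 1.47 ± 0.30 in regenerated against castrated cells (SE, limma adjusted p = 0.0200). The second call was lost without castrated replicate 1, 2 or 3 or regenerated replicate 2 or 3, with a limma adjusted p of up to 0.0703. Acadsb, a dehydrogenase of short branched-chain acyl-CoA, changed by -1.54 ± 0.28 in castrated against intact cells (SE, limma adjusted p = 0.0086).

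Around Aldh18a1, 10 of 17 listed genes of proline and ornithine metabolism were measured, and 1 was higher and 2 were lower in castrated than in intact cells, where 4.82% of all genes were higher and 3.19% lower. Of the 10, 7 were above 6.40 on some array. Prodh, the proline dehydrogenase that runs opposite to synthesis, read 8.76, 9.44, 9.24 and 11.68 on regenerated arrays, 10.73, 10.75 and 9.85 on castrated arrays, and 7.23, 7.70 and 8.01 on intact arrays. Intact arrays were the lowest, and regenerated replicate 4 was above every other array. Prodh rose by 2.80 ± 0.64 in castrated against intact cells (SE, limma adjusted p = 0.0234, and up to 0.101 without intact replicate 1 or 2 or castrated replicate 1 or 2). Between regenerated and castrated cells it differed by -0.66 (limma adjusted p = 0.621), and by -1.29 without regenerated replicate 4 (limma adjusted p = 0.0390). Odc1, the ornithine decarboxylase of polyamine synthesis, changed by -2.32 ± 0.37 in castrated against intact cells (SE, limma adjusted p = 0.00398).

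Of 23 measured genes of folate metabolism, 2 were higher and 3 lower in castrated than in intact cells, where 4.82% of all genes were higher and 3.19% lower. In regenerated against castrated cells 2 were higher and 1 lower, where 1.97% of all genes were higher and 3.01% lower. On some array 13 of the 23 were above 6.40. Mthfd2, the mitochondrial methylenetetrahydrofolate dehydrogenase, read 7.84, 7.85, 8.12 and 7.30 on regenerated arrays, 5.15, 5.33 and 4.81 on castrated arrays, and 7.16, 7.01 and 7.65 on intact arrays. Castrated arrays were again lowest, under the background limit. It changed by -2.18 ± 0.25 in castrated against intact cells (SE, limma adjusted p = 0.000754) and by 2.68 ± 0.23 in regenerated against castrated cells (SE, limma adjusted p = 0.000192). Ggh, the hydrolase that removes glutamates from folates, rose by 1.60 ± 0.26 in castrated against intact cells (SE, limma adjusted p = 0.00418) and fell by 1.44 in regenerated against castrated cells (limma adjusted p = 0.0071).

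**Figure D4:**
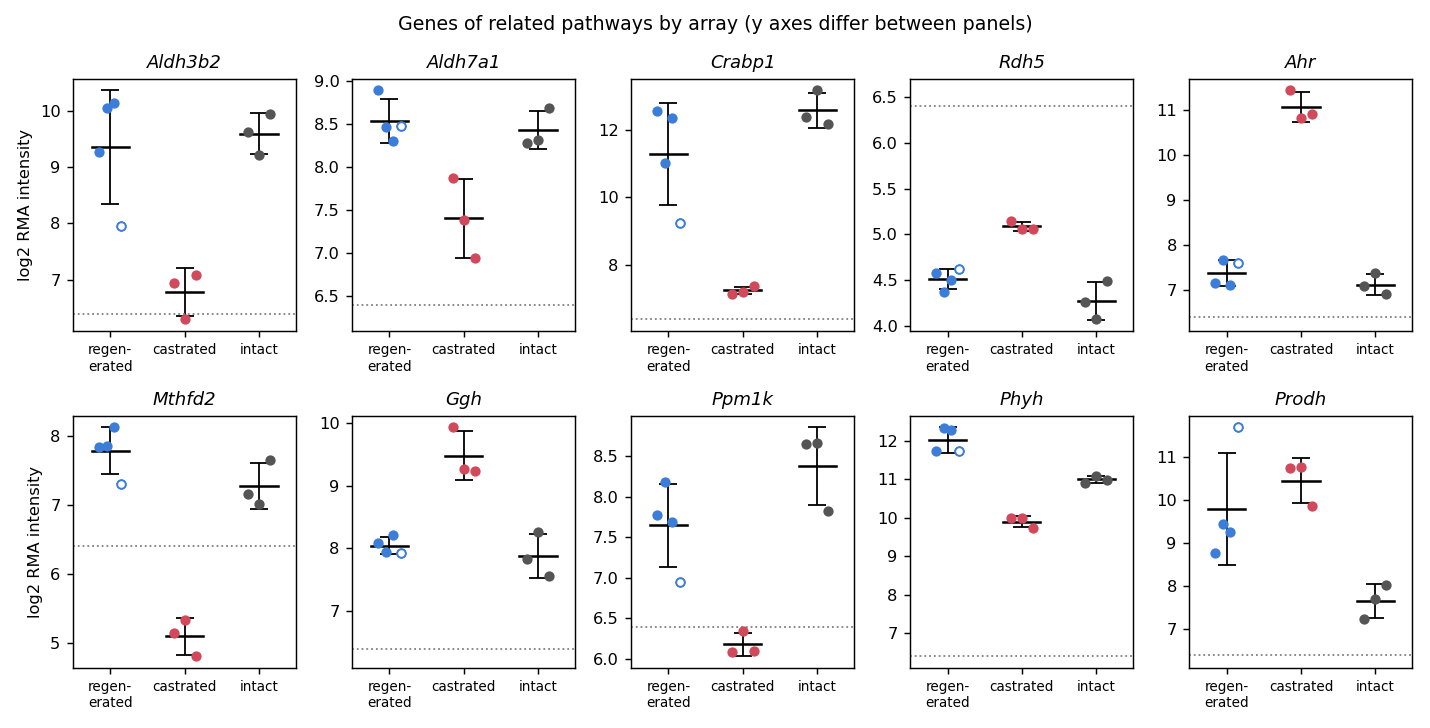
Log2 RMA intensity (y axis, scales differ between panels) of 10 related genes on each array of the regenerated, castrated and intact groups. Points are arrays, the open circle is regenerated replicate 4, bars give the mean ± SD and the dotted line is the highest background value, 6.40. Ahr, Ggh and Rdh5 are highest on castrated arrays, and Aldh3b2, Aldh7a1, Crabp1, Mthfd2, Ppm1k and Phyh are lowest there.

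Lists of stress-response genes that can include such enzymes were read as well. Of 17 Atf4 response genes, 10 with an array above 6.40, 0 were higher and 2 lower in castrated than in intact cells, where 4.82% of all genes were higher and 3.19% lower. In regenerated against castrated cells 3 were higher and 0 lower, where 1.97% of all genes were higher. Phgdh, the first enzyme of serine synthesis, changed by -2.79 ± 0.26 in castrated against intact cells (SE, limma adjusted p = 0.000226). Of 16 measured Nrf2 and aryl hydrocarbon receptor response genes, 10 with an array above 6.40, 2 were higher and 0 lower in castrated than in intact cells, where 4.82% of all genes were higher. The receptor gene Ahr, whose targets include Aldh3a1 in mouse liver cells, read 7.16, 7.66, 7.10 and 7.60 on regenerated arrays, 11.43, 10.82 and 10.91 on castrated arrays, and 7.08, 7.37 and 6.92 on intact arrays. Castrated arrays stood clear of both groups, and Ahr rose by 3.94 ± 0.25 against intact cells (SE, limma adjusted p = 2.79e-05) and fell by 3.68 in regenerated against castrated cells (limma adjusted p = 2.15e-05). The other gene of that list that passed in castrated against intact cells was Gstm1, higher by 1.65. Cyp1a1, Cyp1a2, Cyp1b1, Ahrr and Nqo1 lay under 6.40 on every array. Tiparp averaged 9.87 on castrated and 9.49 on intact arrays and did not pass. Activity of the receptor was not tested. In regenerated against intact cells none of these lists had a gene that passed in limma.

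The genes most like an enzyme of each kind were ranked by Pearson r over the 10 arrays, among 623 genes with an SD over the arrays of at least 1. Closest to Aldh3a2 were Galnt18, Copb2, Rgs2, Nans and Clint1, with r of 0.99 for each. Closest to Aldh1a7 were Mthfd2, Spcs3, Abo, Azgp1 and Wfdc3, with r of 0.97 to 0.98. Closest to Aldh6a1 were Uso1, Timp4, Rgs2, Car5b and Pdp2, with r of 0.97 to 0.98. Aldh2 and Aldh1l1, which varied less, had lower values: 0.88 with Nploc4 for Aldh2, and 0.94 with Cib4 for Aldh1l1. The points share arrays and the same 3 conditions, so these values describe a shared pattern between groups.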

How the data were processed

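The deposited table holds log2 intensities of 72688 rows. The submitters' processing notes name Affymetrix Expression Console and RMA, which the authors used for them; for versions and genome build, nothing is given in the sources used here. This method brings the arrays to a common distribution, so a shift of all genes would be reduced. Rows were named from the platform annotation, with 827 symbols updated against RefSeq; rows with several symbols were left out, and genes with several rows kept the row with the highest mean. All 30142 genes entered 1 linear model in limma 3.58.1 (R 4.3.3; lmFit, eBayes with trend, 3 groups, 7 residual degrees of freedom), with two-sided p-values adjusted by Benjamini-Hochberg within a comparison. The method was tested on simulated data. Members and lists were chosen with earlier results of these data known. Named were all members, up to 3 called genes per list and comparison with the largest change or else the 2 largest, of which the text gives a selection, and the genes most like 1 member per kind. Replicates are called biological in the labels, and p-values reflect the spread among these arrays. Arrays have no depth, so their number limits precision. Alternatives left out single arrays or dim genes, and changed centring, array weights, the variance trend, the rows of a gene, the samples fitted and the replicate block.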

Additional observations from a re-analysis of the deposited data

Results flagged for a closer look

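Of 47 named genes checked in the regenerated group, 3 had an array far from the others, and chance flags about 1 in 20 groups. Aldh3a2 read 14.69 on regenerated replicate 4 and 16.22 to 16.35 on the other regenerated arrays. The retinol dehydrogenase gene Dhrs9 read 3.36 on regenerated replicate 1 and 3.45 to 3.46 on the others, all at background. The glutathione transferase gene Gstm1 read 12.50 on regenerated replicate 1 and 11.01 to 11.20 on the others. Among the list genes outside these 47, Mthfs, Folr1, Gcsh, P4ha2 and Nupr1 were flagged on regenerated replicate 4. Cyp26a1 was flagged on regenerated replicate 2 and Mccc1 on regenerated replicate 3.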

How the results depend on the processing

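None of the changes of the 10 enzymes changed sign under the alternatives. Among list genes a small difference could change sign. Aldh3b2 differed by -0.24 in regenerated against intact cells, and by 0.225 without regenerated replicate 4. With arrays centred on their medians the median change of all genes turned to -0.02 in castrated against intact cells (0.04 uncentred) and to 0.02 in regenerated against castrated cells (-0.01 uncentred). In castrated against intact cells, 2414 genes passed over all arrays, 4258 with array weights, and 1019 (without intact replicate 1) to 3271 (without regenerated replicate 4) with 1 array left out; without intact replicate 2 it was 1200 and without castrated replicate 2 it was 1473. Of the enzymes 8 passed, 5 with dim genes left out, since the 4 dim enzymes were then not tested, and 6 to 8 with 1 array left out. In regenerated against castrated cells, 1500 genes passed, 822 with only those groups fitted, and 816 (without castrated replicate 2) to 2127 (without regenerated replicate 4) with 1 array left out; without regenerated replicate 2 it was 871 and without regenerated replicate 3 it was 934. Of these calls 39.5% were higher over all arrays, 50.6% without regenerated replicate 4 and 52.4% with the replicate block, so the larger share turned. Of the enzymes 6 passed, and 5 to 6 with 1 array left out. In regenerated against intact cells, 11 genes passed, 2 without the variance trend, 70 with array weights, 0 with only those groups fitted, 22 with dim genes left out, and 0 to 78 (78 without regenerated replicate 1) with 1 array left out; 0 enzymes passed in each. Of the 300 single enzyme values with 1 array left out, 12 lost a call and 1 gained it, and of 198 under the other alternatives 2 lost a call and 1 gained it. No clear pairing by replicate number was seen. Deviations from group means correlated at -0.16 to 0.26 over 9 same-number pairs, and arrays correlated best with their own number in 4 of 18 cases. Such correlations, from 3 or 4 arrays per group, cannot exclude a pairing. With the replicate block 2715, 1637 and 4 genes passed in the 3 comparisons in this order, and 8, 6 and 0 enzymes. Array intensity limits what can be seen of Aldh1a3, Aldh3a1, Aldh1l1 and Aldh1l2, which lay at or under the highest background value, 6.40, or 5.58 without castrated replicate 3, where Aldh3a1 and Aldh1l1 lay above it on 1 array each.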
